A study of Mus musculus with 7 samples.

Results

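The genes described here are Cirbp, Rbm3, Per1, Per2, Dbp, Tef, Nr1d1 and Nr1d2, 8 of the 55491 gene rows in the deposited matrix. They were chosen by measured values of these same libraries, because Cirbp was higher in several cell classes of mice with the Siglece deletion and Per1 was higher in their plasmacytoid dendritic cells, so differences between the genotypes are given below as a description and without a test of single genes. Levels within a mouse between cell types, cell cycle phases and T cell states were not used to pick the genes, and these were tested.

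Cirbp and Rbm3 encode the cold-inducible RNA-binding proteins, which bind and stabilise messenger RNA, and both transcripts are known to rise on mild cooling and to fall on warming. In the circadian clock, CLOCK and BMAL1 (the product of Arntl) act on E-boxes to drive the Per and Nr1d genes, Dbp and Tef. PER proteins repress CLOCK and BMAL1, the nuclear receptors NR1D1 and NR1D2 (REV-ERB alpha and beta) repress Arntl in competition with the ROR receptors, and the bZIP factors DBP and TEF pass the rhythm on to D-box genes. Per1 also belongs to the immediate-early genes and responds to glucocorticoids and cAMP, so it is known to move outside the daily cycle as well.

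All 7 mice carried floxed Siglece alleles, were 8 to 12 weeks old when CT-2A glioma cells were injected into the brain, and were given tamoxifen, 2.5 mg per injection daily from day 7 to day 21 and every other day after that. The 4 KO mice (Siglece KO in the labels, titled CRE+) also carried Sall1CreERT2, a tamoxifen-dependent Cre driven by a gene that marks microglia, and the 3 WT mice (CRE-) did not. The strain names place the Cre allele on B6;129 and the Siglece allele on B6.129P2. Each mouse gave 1 library: the tumour-bearing hemisphere was minced on ice, dissociated with enzymes at body temperature and frozen, and thawed cells that were live and positive for CD45 or CD11b, or for both, were sorted for droplet 5′ single-cell RNA sequencing. The time of day at which each mouse was killed is not given in the sources used here.

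In the mm10 assembly (GRCm38, GENCODE M21 annotation) all 8 are protein-coding genes on different chromosomes, except that Per1 (chr11:69095217-69109960, plus strand) and Nr1d1 (chr11:98767932-98775333, minus strand) share chromosome 11. Cirbp lies at chr10:80165985-80172786, Tef at chr15:81802421-81826863 and Dbp at chr7:45705088-45710203 on the plus strand. Rbm3 lies on the X chromosome (chrX:8138975-8145880), Per2 at chr1:91415982-91459324 and Nr1d2 at chr14:18204054-18239127 on the minus strand.

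Promoter windows of these genes, from 250 bases before to 50 bases after each RefSeq start (GRCm38.p6), were searched for elements known to drive cold-inducible and clock genes. 6 of the 8 genes had such a window (9 windows in all), and Rbm3 and Per2 had none. 4 are printed 5′ to 3′ along the gene's strand because the results below turn on these genes, with matches in capitals.
Cirbp (chr10:80167589-80167888, plus strand): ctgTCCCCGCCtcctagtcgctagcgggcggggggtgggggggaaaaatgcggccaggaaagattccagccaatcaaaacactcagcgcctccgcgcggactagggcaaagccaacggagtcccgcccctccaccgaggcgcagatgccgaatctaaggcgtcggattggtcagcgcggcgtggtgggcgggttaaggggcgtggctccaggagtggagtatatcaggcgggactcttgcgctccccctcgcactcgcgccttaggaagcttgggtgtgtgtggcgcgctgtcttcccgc
Per1 (chr11:69098699-69098998, plus strand): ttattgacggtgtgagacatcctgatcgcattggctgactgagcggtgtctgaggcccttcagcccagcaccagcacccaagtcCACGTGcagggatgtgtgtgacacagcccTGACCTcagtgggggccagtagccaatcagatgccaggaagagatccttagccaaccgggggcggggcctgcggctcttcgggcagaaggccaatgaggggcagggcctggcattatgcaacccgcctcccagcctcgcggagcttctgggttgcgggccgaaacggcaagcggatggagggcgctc
Nr1d1 (chr11:98775328-98775627, minus strand): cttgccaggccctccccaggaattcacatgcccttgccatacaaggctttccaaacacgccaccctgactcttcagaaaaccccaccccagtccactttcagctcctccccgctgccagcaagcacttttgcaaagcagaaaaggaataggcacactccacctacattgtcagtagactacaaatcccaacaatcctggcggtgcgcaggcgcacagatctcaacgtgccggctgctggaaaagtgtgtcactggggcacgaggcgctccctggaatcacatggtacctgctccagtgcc
Nr1d2 (chr14:18239057-18239356, minus strand): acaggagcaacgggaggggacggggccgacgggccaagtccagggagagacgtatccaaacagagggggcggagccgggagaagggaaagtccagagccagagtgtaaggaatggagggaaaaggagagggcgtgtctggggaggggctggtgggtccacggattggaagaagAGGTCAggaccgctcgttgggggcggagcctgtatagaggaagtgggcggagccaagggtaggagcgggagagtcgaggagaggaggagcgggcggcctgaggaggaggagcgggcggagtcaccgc

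The capitals in Cirbp mark TCCCCGCC, the mild-cold response element, which began 247 bases before the start and was found in 5.38% of 32851 mouse promoters of the same length. In Per1 they mark the E-box CACGTG, 166 bases before the start and in 7.15% of promoters, and TGACCT, which is the ROR half-site AGGTCA read from the other strand, 137 bases before the start and in 16.3% of promoters. Nr1d2 held AGGTCA 77 bases before its start. Both Tef windows held CACGTG, whereas the Nr1d1 and Dbp windows and the second windows of Cirbp and Per1 held none of the letters searched on either strand. The other motifs searched were the cAMP element TGACGTCA (1.79% of promoters), the D-boxes TTATGTAA (0.938%) and TTACGTAA (0.119%) and the heat shock pair GAANNTTC (7.86%), and none of the 9 windows held them. A match is a stretch of letters and not a measured binding site, and the windows do not cover more distant elements.

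The matrix held 207882564 UMIs (unique molecular identifiers, each standing for 1 captured RNA) in 28644 cells, between 16037214 and 38966377 per library. The authors' 23 cell annotations were joined into 9 classes, and levels are UMIs per 1000000 UMIs of a class (CPM), a share of its RNA, given where a library had 20 or more cells of the class. Most markers listed for a class were highest in it, 8 of 8 for microglia and 7 of 8 for T cells but 5 of 9 for monocyte-derived cells. Siglece, the targeted gene, had 3 UMIs of 454659 in 113 KO microglia and 46 of 1345210 in 301 WT microglia, with the libraries overlapping at this depth (0 to 19.6 CPM in KO, where the highest value is 1 UMI, and 18.6 to 45.9 in WT). In all other cells it was 11.3 to 24.4 CPM in KO and 14.5 to 38.8 in WT. 460 barcodes occurred in more than 1 library. KO libraries 1 and 2 and WT library 3 were from females and the rest from males, by their Xist and Y-linked UMIs. The median share of ribosomal UMIs per cell was 17.4 to 20.8% in KO and 11.6 to 15.3% in WT libraries.

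Expression of the 8 genes spanned a wide range of UMI totals. Rbm3 gave 185914 UMIs and was seen in 90.7% of cells, Cirbp gave 22406 (45.8% of cells) and Per1 gave 20611 (42.9%). The remaining clock genes were sparse: Nr1d2 gave 1856.5 UMIs, Tef 1848, Dbp 747, Per2 524 and Nr1d1 518, each in 1.4 to 5.84% of cells. A 5′ tag does not give a level per length, so levels are compared within a gene only.

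**Figure D1:**
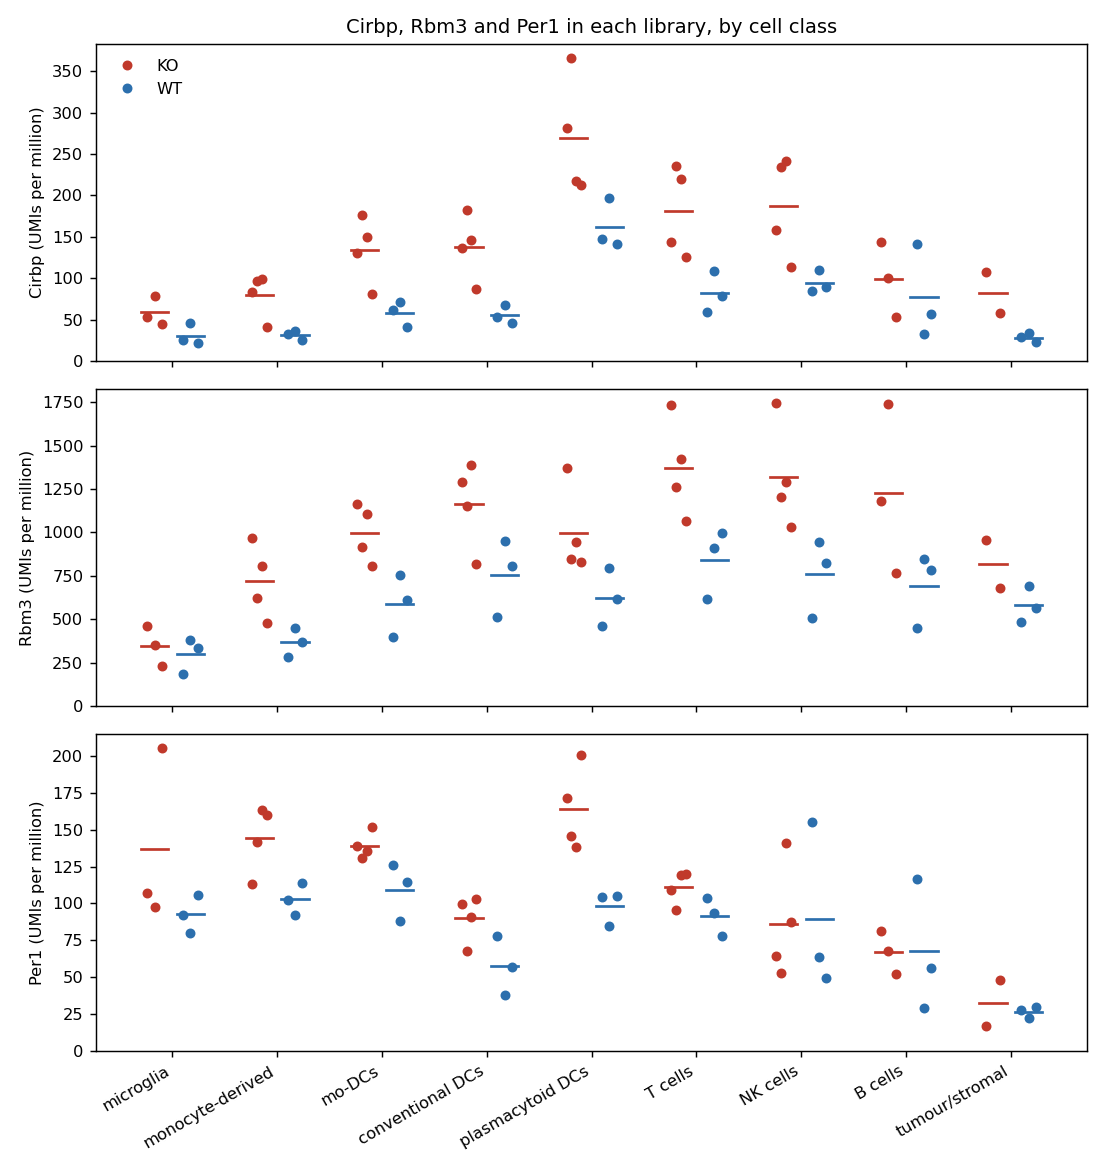
CPM of Cirbp, Rbm3 and Per1 in each library (points, KO and WT in separate colours) for the 9 cell classes, with genotype means as bars across the points. Cirbp was highest in plasmacytoid dendritic cells, Rbm3 in T and NK cells and Per1 was lowest in tumour or stromal cells, and the WT libraries lie below the KO libraries for Cirbp in 7 of the 9 classes.

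Cirbp was most abundant in plasmacytoid dendritic cells at 223 ± 78.5 CPM (SD, n = 7). NK cells (147 ± 66.5, n = 7) and T cells (139 ± 66.9, n = 7) followed, then conventional dendritic cells (103 ± 52.5, n = 7), monocyte-derived dendritic cells (101 ± 50.6, n = 7) and B cells (88.0 ± 47.9, n = 6). Monocyte-derived cells (59.3 ± 32.3, n = 7), tumour or stromal cells (50 ± 34.7, n = 5) and microglia (44.8 ± 20.7, n = 6) were lowest. Class means here and below pool KO and WT libraries unless a genotype is named, so their SDs include the difference between genotypes. Over alternative ways of computing the level the B cell mean ranged from 75.7 to 141.6 CPM, so its place in the order is not fixed. All 8 pairs of neighbours in this order differed by less than the larger SD of the pair, but plasmacytoid cells were the highest class in 6 of the 7 libraries. Among the dendritic annotations cDC2 stood at 173 ± 84.4 CPM and cDC1 at 83 ± 45.3 (SD, n = 7 each).

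Within each class the libraries differed widely in Cirbp. In T cells it was 143, 235, 219.5 and 125 CPM in the KO libraries against 59.0, 109 and 78.1 in the WT libraries, and all KO libraries lay above all WT libraries. In monocyte-derived cells the values were 83.4, 97.2, 98.5 and 41.6 CPM in the KO libraries against 32.1, 36.2 and 26.0 in the WT libraries, again without overlap. Plasmacytoid dendritic cells had 281, 366, 218 and 212 CPM in the KO libraries against 147, 197 and 142 in the WT libraries, with KO library 4 and WT library 2 nearest each other. KO library 4 was the lowest KO library in all 9 classes and KO library 2 the highest in 7. Among the WT libraries WT library 2 was the highest in 8 classes, and WT library 3 was the lowest in 6. KO libraries 1 and 3 had no fixed order.

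The genotypes did not overlap either in conventional dendritic cells (137, 182, 147 and 87.6 CPM in the KO libraries against 52.7, 68.0 and 45.9 in the WT libraries) and in NK cells (158, 235, 242 and 113 CPM in the KO libraries against 84.9, 110.4 and 88.9 in the WT libraries). B cells (144, 101 and 53.3 CPM in KO libraries 2, 3 and 4 against 142, 32.1 and 56.5 in the WT libraries) and microglia (53.6, 78.3 and 44.4 CPM in KO libraries 1, 2 and 4 against 25.3, 45.9 and 21.2 in the WT libraries) were the classes in which the genotypes overlapped.

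On the log2 scale the Cirbp difference (KO minus WT, edgeR, ± SE) was 1.59 ± 0.26 in tumour or stromal cells, 1.35 ± 0.27 in monocyte-derived cells, 1.27 ± 0.23 in conventional dendritic cells and 1.16 ± 0.27 in T cells. It was 1.16 ± 0.27 in monocyte-derived dendritic cells, 0.96 ± 0.26 in NK cells, 0.72 ± 0.20 in plasmacytoid dendritic cells, 0.79 ± 0.44 in microglia and 0.31 ± 0.54 in B cells. The tumour or stromal estimate rested on 2 KO libraries (58.0 and 107 CPM, against 22.7 to 33.6 in WT). It ranged from 1.10 to 1.91 over the alternative runs. The estimate in microglia, the class in which the driver gene is a marker, lay below those of 6 other classes, a comparison that was not tested. The ratio of the genotype means was 2.20 in T cells (181 ± 54.5 CPM, SD, n = 4, against 82.1 ± 25.3, n = 3) and 2.55 in monocyte-derived cells.

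The KO-minus-WT difference of Cirbp was nearly as large with sex as a term (1.15 in T cells and 1.32 in monocyte-derived cells) and in G1-phase cells only (1.10 and 1.30). Ribosomal share (median per cell) was higher in KO without overlap over all cells, and within classes only in monocyte-derived dendritic cells (16.7 to 17.6% in KO, 13.5 to 16.3% in WT), where Cirbp, Rbm3 and Per1 did not overlap either. It overlapped in the other 8 classes, among them T cells (19.8 to 22.1% in KO, 17.8 to 22.4% in WT) and monocyte-derived cells (10.9 to 14% and 9.69 to 11.2%). Its part in these differences was not tested. In B cells the Cirbp value moved with the WT libraries, being 1.11 without WT library 1 and -0.11 without WT library 2.

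Rbm3, the other cold-inducible gene, had a different order of classes. T cells (1145 ± 366 CPM, SD, n = 7) and NK cells (1079 ± 391, n = 7) were highest, followed by conventional dendritic cells (989 ± 307) and B cells (961 ± 448, n = 6). Plasmacytoid dendritic cells (839 ± 285) and monocyte-derived dendritic cells (822 ± 270.5) were in the middle, and tumour or stromal cells (675 ± 179, n = 5), monocyte-derived cells (569 ± 246) and microglia (322 ± 101, n = 6) were lowest. Only the last step, from monocyte-derived cells to microglia, exceeded the larger SD of the pair. It did so by a narrow margin and with 7 libraries against 6, and it had the same direction in 6 of 6 libraries.

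In T cells Rbm3 was 1737, 1259.8, 1425 and 1066 CPM in the KO libraries against 617, 913 and 996 in the WT libraries. Monocyte-derived cells had 969.8, 622, 808 and 480.0 CPM in the KO libraries against 285, 449 and 368 in the WT libraries, and plasmacytoid dendritic cells had 1372, 849, 947 and 830.0 CPM in the KO libraries against 461, 795 and 619 in the WT libraries. The genotypes did not overlap in these classes, nor in NK cells and monocyte-derived dendritic cells. As for Cirbp, KO library 4 was the lowest KO library in all 9 classes and WT library 2 the highest WT library in 8. At the other ends, KO library 1 was the highest in 6 classes and WT library 1 the lowest in all 9. In microglia (458, 352 and 229.6 CPM in KO libraries 1, 2 and 4 against 182, 379 and 334 in the WT libraries), conventional dendritic cells and B cells the genotypes overlapped.

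The log2 difference of Rbm3 (KO minus WT, ± SE) was 0.97 ± 0.26 in monocyte-derived cells, 0.74 ± 0.22 in T cells, 0.68 ± 0.22 in plasmacytoid dendritic cells and 0.21 ± 0.30 in microglia. Leaving out KO library 1 turned the microglial value of Rbm3 to -0.16, and leaving out WT library 1 turned it to -0.09. In the other classes Rbm3 kept a positive difference under each alternative run. T cell sums pool annotations whose mix differed between libraries. Precursor-exhausted CD8 cells were 144 of 613, 1091 of 2663, 2040 of 3792 and 1175 of 3549 T cells in KO libraries 1 to 4. They were 21 of 311, 159 of 1504 and 446 of 1260 in WT libraries 1 to 3. Over the alternative runs, annotations weighted equally among them, the T cell value was 0.53 to 0.92 for Rbm3 and at least 0.94 for Cirbp. How much of it the mix accounts for was not tested.

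Per1 was spread more evenly over the immune classes. Plasmacytoid dendritic cells (136 ± 41.0 CPM, SD, n = 7), monocyte-derived cells (127 ± 28.3) and monocyte-derived dendritic cells (126 ± 20.6) were nearly level, followed by microglia (115 ± 45.6, n = 6), T cells (103 ± 15.1), NK cells (87.5 ± 43.1), conventional dendritic cells (76.2 ± 23.9) and B cells (67.2 ± 29.7, n = 6). Tumour or stromal cells had 29.0 ± 11.7 (n = 5), the only step in the order larger than the SD of either neighbour. Over alternative ways of computing the level the Per1 mean ranged from 57.3 to 109.4 CPM in B cells and from 99.9 to 118 in T cells. Among annotations gamma-delta T cells (182 ± 73.3, n = 4), naive or early activated CD4 cells (159.5 ± 41.1, n = 7) and exhausted CD8 cells (157 ± 37.4, n = 6) had the most Per1.

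In plasmacytoid dendritic cells Per1 was 171, 146, 138 and 201 CPM in the KO libraries against 105, 84.9 and 105 in the WT libraries, and in monocyte-derived dendritic cells it was 139, 131, 135 and 152 CPM in the KO libraries against 126, 87.8 and 114 in the WT libraries. Of the 9 classes, these were the ones without overlap for Per1. The T cell libraries overlapped (109, 95.8, 119.6 and 120.2 CPM in the KO libraries against 104, 93.2 and 78.0 in the WT libraries). The log2 difference of Per1 was 0.80 ± 0.19 (SE) in plasmacytoid dendritic cells, 0.66 ± 0.30 in microglia, 0.63 ± 0.24 in conventional dendritic cells, 0.50 ± 0.17 in monocyte-derived cells and 0.33 ± 0.13 in T cells. In NK cells (-0.02 ± 0.48) and B cells (0.01 ± 0.47) it was smaller than its SE. The microglial value fell to 0.13 without KO library 4, which had 205.5 CPM. The T cell value of Per1 ranged from 0.21 to 0.39 over the alternative runs, annotations weighted equally among them.

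**Figure D2:**
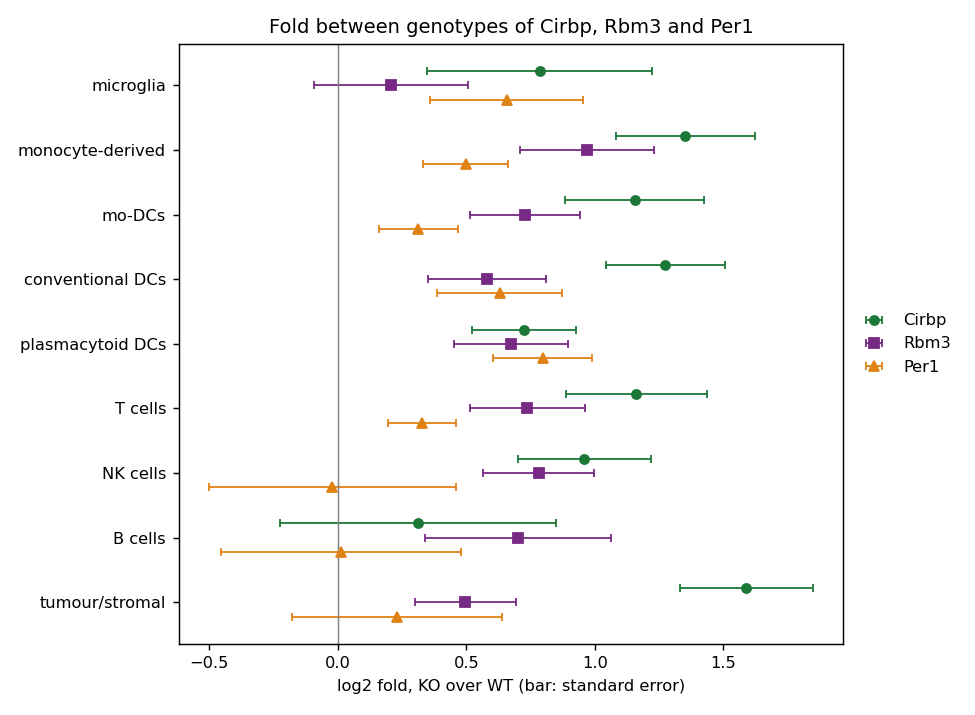
Log2 difference, KO minus WT, of Cirbp, Rbm3 and Per1 in each of the 9 classes, as edgeR estimates with bars of 1 SE. Cirbp lies above Rbm3 and Per1 in tumour or stromal, monocyte-derived, conventional dendritic and T cells, and its widest bar is that of B cells.

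The other clock genes had few UMIs per library, and only monocyte-derived cells and T cells had enough of all 8 genes to be fitted. Per2, the second period gene, had its highest class means in microglia (6.10 ± 7.46 CPM, SD, n = 6) and monocyte-derived cells (5.03 ± 1.76, n = 7). The microglial mean rested on 8 UMIs, and its highest value (19.6 CPM, KO library 2) is 1 UMI. Among WT libraries the means were 3.81 CPM in microglia and 5.18 in monocyte-derived cells, so the order of these classes is not fixed. In NK cells Per2 had 3 to 7 UMIs in each KO library (2.16 to 4.91 CPM) and 0 in each WT library, where a count of 0 allows up to 4.52, 10.0 and 11.1 CPM, so a difference was not detectable at this depth. In T cells the log2 difference of Per2 was 0.57 ± 0.45 (SE).

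Tef was highest in microglia (28.4 ± 7.60 CPM, n = 6) and tumour or stromal cells (24.2 ± 2.71, n = 5), and T cells had 9.67 ± 2.59 (n = 7). In T cells Tef was 11.1, 10.8, 13.6 and 9.67 CPM in the KO libraries against 8.27, 9.04 and 5.26 in the WT libraries, without overlap, with a log2 difference of 0.65 ± 0.23 (SE). Dbp, which encodes the related bZIP factor, was highest in tumour or stromal cells (9.20 ± 5.39, n = 5), where it was 2.46 and 6.73 CPM in KO libraries 2 and 4 against 14.3, 7.39 and 15.1 in the WT libraries. T cells had 4.34 ± 1.30 CPM of Dbp, with a log2 difference of -0.03 ± 0.35 (SE). Dbp overlaps Sphk2 by 737 bases on the opposite strand, and whether reads were counted by strand is not given in the sources used here.

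Nr1d1 was highest, of the classes, in tumour or stromal cells (20.2 ± 8.69 CPM, n = 5), at 8.85 and 13.5 CPM in KO libraries 2 and 4 against 23.9, 24.9 and 29.8 in the WT libraries. Its 3′ end overlaps Thra, on the opposite strand, by 1075 bases, and Thra was also highest in these cells at 68.6 ± 15.5 CPM (SD, n = 5). Nr1d2 was highest in the same cells (25.5 ± 6.38) and in microglia (24.1 ± 12.1, n = 6), against 12.7 ± 3.93 in T cells and 3.21 ± 0.961 in conventional dendritic cells (n = 7 each). In T cells Nr1d1 was 1.50, 1.08, 0.779 and 1.09 CPM in the KO libraries against 21.3, 4.80 and 1.56 in the WT libraries, and for Nr1d2 the genotypes overlapped.

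The count of these genes past a threshold is given with the share of all genes past it, and since the genotype contrast chose the genes, nothing is read from it. edgeR's quasi-likelihood test with Benjamini-Hochberg adjustment called 0 of the genes tested in each class (3 in microglia, plasmacytoid dendritic, NK and B cells, 5 in monocyte-derived dendritic, 6 in conventional dendritic, 7 in tumour or stromal cells and all 8 in monocyte-derived cells and T cells). Over all genes the share called was 0.0415% in microglia, 0.0% in monocyte-derived cells, 0.0% in monocyte-derived dendritic cells, 0.0% in conventional dendritic cells, 0.045% in plasmacytoid dendritic cells, 0.0% in T cells, 0.0141% in NK cells, 0.0% in B cells and 0.0288% in tumour or stromal cells. At an unadjusted p under 0.05 it was 5 genes of the list in T cells, 4 in tumour or stromal cells, 3 each in monocyte-derived, conventional dendritic and plasmacytoid cells, 2 each in monocyte-derived dendritic and NK cells, 1 in microglia and 0 in B cells. The share of all genes at that threshold was 11.8% in microglia, 5.64% in monocyte-derived cells, 7.6% in monocyte-derived dendritic cells, 6.95% in conventional dendritic cells, 6.36% in plasmacytoid dendritic cells, 6.57% in T cells, 4.09% in NK cells, 0.968% in B cells and 8.62% in tumour or stromal cells. DESeq2 called 2 of the genes in T cells, 1 each in monocyte-derived cells, in monocyte-derived and conventional dendritic cells and in tumour or stromal cells, and 0 elsewhere. Its share of all genes called was 0.124% in microglia, 0.167% in monocyte-derived cells, 0.324% in monocyte-derived dendritic cells, 0.128% in conventional dendritic cells, 0.09% in plasmacytoid dendritic cells, 0.277% in T cells, 0.0566% in NK cells, 0.0645% in B cells and 0.153% in tumour or stromal cells.

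Without overlap and higher in KO were 3 of the 8 genes in T cells (Cirbp, Rbm3, Tef) and in both plasmacytoid and monocyte-derived dendritic cells (Cirbp, Rbm3, Per1), 2 in monocyte-derived cells and in NK cells (Cirbp, Rbm3), and Cirbp alone in conventional dendritic cells and in tumour or stromal cells. Per2 in NK cells, at 0 UMIs in each WT library, is not counted. The share of all genes with every KO library above every WT library was 8.84% in microglia, 2.75% in monocyte-derived cells, 5.31% in monocyte-derived dendritic cells, 5.08% in conventional dendritic cells, 3.48% in plasmacytoid dendritic cells, 3.04% in T cells, 3.51% in NK cells, 3.08% in B cells and 12.0% in tumour or stromal cells. Lower in KO without overlap were Nr1d1 in T cells, and Nr1d1 and Dbp in tumour or stromal cells, where 2 KO libraries had 20 or more cells. In KO library 1, with 17 tumour or stromal cells, Dbp was at 16.3 CPM (8 UMIs) and Nr1d1 at 26.5 CPM (13 UMIs), so with that library the genotypes overlapped for both. In T cells the nearest Nr1d1 values, 1.50 CPM in KO library 1 and 1.56 in WT library 3, lay within each other's counting error. Dbp in B cells, at 0, 1 and 3 UMIs in the KO libraries, is not counted, since a count of 0 in KO library 2 allows up to 18.7 CPM and the WT values were 2.08 to 8.07. The share of all genes in that direction was 9.94% in microglia, 3.47% in monocyte-derived cells, 2.81% in monocyte-derived dendritic cells, 2.71% in conventional dendritic cells, 3.26% in plasmacytoid dendritic cells, 4.24% in T cells, 2.97% in NK cells, 1.31% in B cells and 13.2% in tumour or stromal cells.

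The median log2 difference over the genes tested was 0.45 in T cells and 0.27 in monocyte-derived cells. The list was chosen because Cirbp, and Per1 in plasmacytoid cells, were higher in KO, so its median is no support for a difference. The median of all genes lay between -0.01 and 0.01 in the 9 classes. Other genes of the same pathways were read from 3 lists. Of the core clock and its regulators (17 genes in the matrix, 4 to 16 tested per class), of the heat shock response (16, 15 or 16 tested) and of immediate-early and glucocorticoid-responsive genes (20, 15 to 20 tested), edgeR called 0 in each class, and 0 to 3, 1 to 5 and 0 to 6 passed an unadjusted p of 0.05. Of all genes, 0.968% (B cells) to 11.8% (microglia) passed that unadjusted threshold, so these ranges over the classes say little by themselves. DESeq2 called 1 of 18 immediate-early genes in microglia, where it called 0.124% of all genes. In T cells the medians of these lists were -0.15, 0.08 and 0.07. In microglia they were 0.69, 0.09 and 0.50, and in B cells 0.08, -0.71 and -0.50. The summed level of the immediate-early and glucocorticoid-responsive list in microglia was 22785, 23138 and 27736 CPM in KO libraries 1, 2 and 4 against 16064, 19338 and 21607 in the WT libraries, without overlap. The core clock sum did not overlap either (842 to 1022 CPM in KO, 725 to 827 in WT). Per1 itself overlapped there (97.9 to 205.5 CPM in KO, 79.7 to 106 in WT). Of all genes in microglia, 8.84% lay higher in KO without overlap. In tumour or stromal cells the core clock and heat shock sums were lower in both KO libraries used than in each WT library, as were 13.2% of all genes. In the other classes, and for the other lists in these classes, the sums overlapped. Their part in the differences of the 8 genes was not tested.

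The genes were chosen by genotype differences in these same libraries, so the next estimates are a description and nothing is read from their counts. Whether the genotype difference of these genes was the same in T cells and monocyte-derived cells was fitted as an interaction (T cells minus monocyte-derived cells). It was -0.15 ± 0.21 (SE) for Cirbp, -0.21 ± 0.15 for Rbm3 and -0.17 ± 0.19 for Per1, the Rbm3 value being larger than its SE and the others smaller. For Nr1d1 it was -1.78 ± 1.06. edgeR called 0 of the 12686 genes tested, so 0 of the 8 against a background of 0.0%, with 648 at an unadjusted p under 0.05 (5.11%), and DESeq2 called 12 (0.0946%).

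Many Nr1d1 UMIs of T cells were in gamma-delta T cells, a small T cell annotation that held 33 of 36 in WT library 1, 22 of 34 in WT library 2, 9 of 13 in WT library 3 and 5 of 8 in KO library 1, but 1 of 12, 5 of 17 and 1 of 20 in KO libraries 2 to 4. Nr1d1 stood there at 113 ± 48.1 CPM (SD, n = 4), with 54.2 in KO library 1 and 103.9, 170.4 and 122.7 in the WT libraries. The other KO libraries had 11 such cells each and were not used. The next annotation was tumour or stromal cells at 20.2 ± 8.69, and naive or early activated CD4 cells followed at 6.56 ± 5.12. Nr1d1 UMIs were found in 48 of 219 gamma-delta cells (21.9%, exact 95% interval 16.6 to 28.0) at a median of 2893 UMIs per cell, and in 56 of 13473 other T cells (0.416%, 0.314 to 0.539) at a median of 4781. In cDC1, with a median of 13792 UMIs, 5 of 1864 cells (0.268%) had 1. These intervals cover counting error only.

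Nr1d2 was also highest in gamma-delta cells, at 63.1 ± 22.4 CPM (n = 4), and was seen in 36 of 219 of them (16.4%) against 800 of 13473 other T cells (5.94%). The same cells held Rora, which encodes a ROR receptor, at 681 ± 143 CPM (SD, n = 4). Per2 had no UMI in the 219 cells, which allows up to 1.37% of them to hold 1 at a median of 2893 UMIs per cell, a limit on cells with a UMI and not on cells expressing the gene. Thra, which overlaps Nr1d1, was at 24.3 ± 7.28 CPM in them. The annotation was made from these transcriptomes, so its levels are given without a test.

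Gamma-delta cells were 27 of 613, 11 of 2663, 11 of 3792 and 11 of 3549 T cells in KO libraries 1 to 4, and 80 of 311, 50 of 1504 and 29 of 1260 in WT libraries 1 to 3. Over all T cells Nr1d1 was 1.11 ± 0.298 CPM (SD, n = 4) in KO and 9.20 ± 10.6 (n = 3) in WT, a log2 difference of -2.82 ± 0.78 (SE). With gamma-delta cells left out it was 0.574, 0.991, 0.551 and 1.04 CPM in KO against 2.18, 1.73 and 0.483 in WT, and the genotypes overlapped. Nr1d2 without these cells was 11.4 ± 2.33 CPM in KO and 11.3 ± 3.19 in WT. The share of gamma-delta cells was 4.40, 0.413, 0.290 and 0.310% in KO and 25.7, 3.32 and 2.30% in WT libraries.

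**Figure D3:**
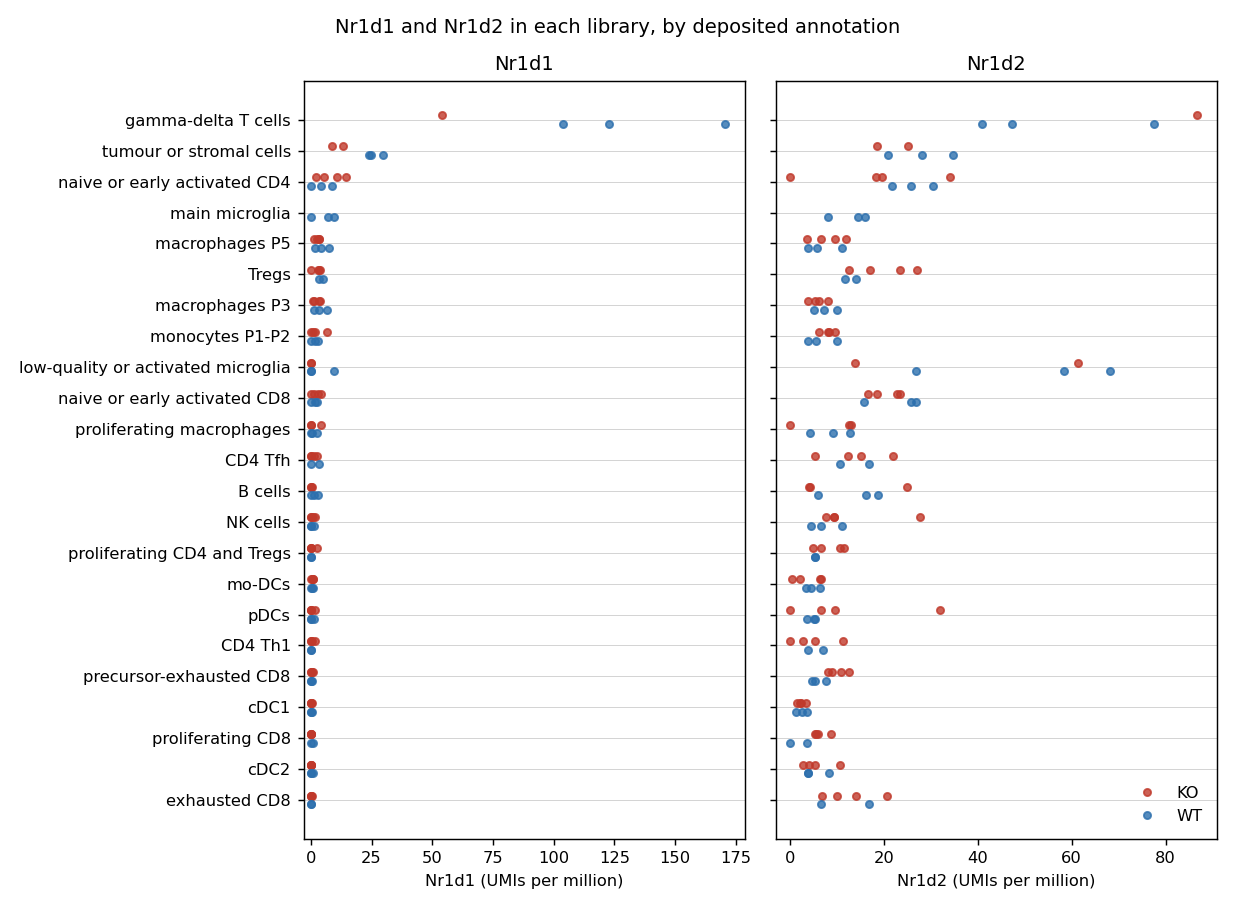
CPM of Nr1d1 and Nr1d2 per library in the cell annotations, KO and WT points in separate colours. Gamma-delta T cells lie apart for Nr1d1 (112.8 CPM on average, against 20.2 in tumour or stromal cells), while their Nr1d2 values overlap those of low-quality or activated microglia.

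Lymphoid and myeloid cells of the same mice were compared next, as the mean of T, NK and B cells against the mean of monocyte-derived cells and the monocyte-derived and conventional dendritic cells (41 sums, mouse as a term). The cell classes were named from the same transcriptomes, so p-values here and below do not test whether the groups are distinct. Each mouse gave several class sums here, so these p-values measure scatter of the 41 sums and not recurrence over 7 mice. In the later comparisons of phases and CD8 states they measure how evenly a difference recurs over the mice. Cirbp was 128 ± 52.8 CPM (SD, n = 7) in lymphoid and 87.8 ± 44.9 in myeloid classes, higher in 7 of 7 libraries. By library the lymphoid means of Cirbp were 151, 204, 187, 97.3, 95.2, 83.9 and 74.5 and the myeloid means 117, 152, 132, 69.9, 48.7, 58.4 and 37.6 (KO libraries 1 to 4, then WT 1 to 3). The log2 difference of Cirbp was 0.44 ± 0.09 (SE), with an adjusted p of 3.7e-05 (edgeR quasi-likelihood, Benjamini-Hochberg over 12388 genes, as for the other adjusted p-values).

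Rbm3 was also higher in lymphoid cells in 7 of 7 libraries, at 1099 ± 413 CPM (SD, n = 7) in lymphoid and 793 ± 269.5 in myeloid classes, and its log2 difference was 0.40 ± 0.05 (SE), with an adjusted p of 4.6e-09 (edgeR). Per1 went the other way, with 86.8 ± 23.6 CPM (SD, n = 7) in lymphoid and 109.8 ± 22.2 in myeloid classes, lower in lymphoid cells in 6 of 7 libraries, with a log2 difference of -0.52 ± 0.09 (SE), with an adjusted p of 7.1e-06 (edgeR). WT library 1 was the exception for Per1, with 125.1 CPM in lymphoid and 102.0 in myeloid classes. Nr1d2 had the greatest difference of the genes tested: 11.9 ± 3.59 CPM (SD, n = 7) in lymphoid and 4.98 ± 1.44 in myeloid classes, higher in 7 of 7 libraries, log2 1.02 ± 0.19 (SE), with an adjusted p of 1.0e-05 (edgeR).

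The bZIP genes had a higher mean over the lymphoid than over these 3 myeloid classes too. Single classes kept to the lineage order for Tef and Nr1d2 but crossed it for Cirbp, Rbm3, Per1 and Dbp. B cells lay below conventional dendritic cells in Cirbp (88.0 and 103 CPM) and Rbm3 (961 and 989). They lay below monocyte-derived cells in Dbp (3.25 and 3.47). Per1 was lower in conventional dendritic cells (76.2) than in T cells (103) and NK cells (87.5). Microglia (Tef at 28.4 and Nr1d2 at 24.1 CPM) and plasmacytoid dendritic cells (Cirbp at 223 CPM) were not in the comparison. Tef was 10.1 ± 2.97 CPM (SD, n = 7) in lymphoid and 6.19 ± 3.15 in myeloid classes (7 of 7 libraries), log2 0.63 ± 0.16 (SE), with an adjusted p of 5.4e-04 (edgeR). Dbp was 3.93 ± 0.738 CPM (SD, n = 7) in lymphoid and 2.41 ± 1.07 in myeloid classes (6 of 7), log2 0.57 ± 0.24 (SE), with an adjusted p of 0.0302 (edgeR), and its adjusted p was 0.20 without KO library 2 and 0.13 without WT library 2. Per2 was not past the threshold, at log2 -0.38 ± 0.26 (SE), with an adjusted p of 0.194 (edgeR), and Nr1d1 was too sparse to be fitted. So 6 of the 7 genes tested were called, 5 higher and 1 lower, against 71.6% of all genes (35.2% higher and 36.4% lower), a share at which a call by itself says little. The median of the 7 was 0.44, and that of all genes 0.02.

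Of the core clock list 10 of 13 were called between lymphoid and myeloid cells, a share near that of all genes (71.6%): Rora (log2 1.30), Arntl (0.72), Ciart (0.59) and Cry2 (0.54) were higher in lymphoid cells, and 6 were lower, among them Usp2 (-1.57), Nfil3 (-1.23), Csnk1e (-1.08), Bhlhe40 (-0.67) and Clock (-0.35). Heat shock genes were mostly higher (10 higher and 1 lower of 16, median 0.38) and immediate-early and glucocorticoid-responsive genes mostly lower (3 higher and 13 lower of 20, median -0.38). Among the latter Atf3 (-2.07), Zfp36 (-1.49) and Sgk1 (-1.48) were lower, as Per1 was, and Jund (0.82) was higher.

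**Figure D4:**
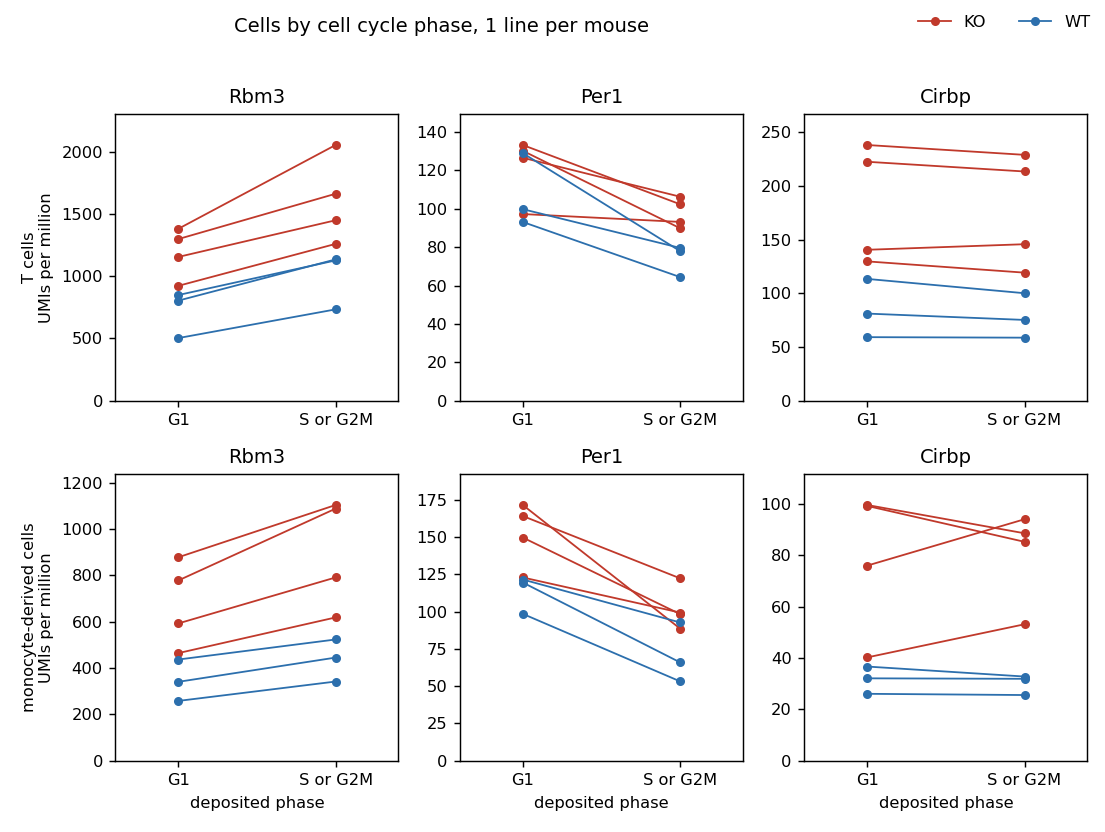
CPM of Rbm3, Per1 and Cirbp in G1-phase and in S or G2M-phase T cells and monocyte-derived cells, 1 line per library. Rbm3 rises and Per1 falls in each of the 7 libraries in both cell types, while Cirbp lines are nearly flat in T cells and go either way in monocyte-derived cells.

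T cells that the authors placed in S or G2M phase were compared with G1-phase T cells of the same mouse. Each phase sum pooled all T cell annotations, so phase and T cell state cannot be told apart in this comparison. Rbm3 was 1380.2, 1155, 1298, 923, 503, 804 and 849 CPM in G1 and 2053, 1449, 1662, 1259, 734, 1135 and 1127 in S or G2M cells (KO libraries 1 to 4, then WT 1 to 3), higher in 7 of 7 libraries. Its log2 difference was 0.46 ± 0.04 (SE), with an adjusted p of 5.6e-10 (edgeR). Per1 was 130.3, 97.3, 127, 133, 129, 99.8 and 93.2 CPM in G1 and 89.9, 93.2, 106, 102, 78.0, 79.7 and 64.5 in S or G2M cells, lower in 7 of 7, and its log2 difference was -0.34 ± 0.06 (SE), with an adjusted p of 1.1e-04 (edgeR). Among the CD8 annotations, which differ in more than phase, Rbm3 was 1907 ± 471 CPM in proliferating cells (SD, n = 6), 1238 ± 355 in precursor-exhausted (n = 7), 1091 ± 181 in exhausted (n = 6) and 825 ± 289 in naive or early activated cells (n = 7). Per1 was 59.5 ± 15.7, 71.2 ± 13.1, 157 ± 37.4 and 113 ± 24.0 in the same order, so proliferating cells were highest in Rbm3 and lowest in Per1, but within the SD of precursor-exhausted cells for Per1.

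Cirbp was 141, 238, 223, 129.9, 59.3, 114 and 81.2 CPM in G1 and 146, 229, 214, 119, 58.8, 100.2 and 75.3 in S or G2M T cells, higher in 1 of 7, and its log2 difference was -0.06 ± 0.05 (SE), with an adjusted p of 0.367 (edgeR). Tef (-0.37 ± 0.15 (SE), with an adjusted p of 0.0523, edgeR) and Nr1d2 (-0.27 ± 0.11 (SE), with an adjusted p of 0.0571, edgeR) did not pass, nor did Dbp (-0.34 ± 0.21 (SE), with an adjusted p of 0.204, edgeR). That made 2 of 6 tested genes called, against 39.8% of all genes (21.4% higher and 18.4% lower). The count was not stable: it was 5 without KO library 3, 4 without WT library 1, 3 without any other single library, 3 with DESeq2 and with whole-number values only, 5 without the filter on low counts and 0 without the mouse term. The share of all genes called was 32.2 to 40.0% with 1 library left out, 33.3% with DESeq2, 18.4% without the filter and 13.7% without the mouse term. Tef passed in 5 alternatives: without KO library 3 (adjusted p = 0.0161, edgeR), without WT library 1 (0.0469), without the filter on low counts (0.0129), with whole-number values only (0.0483) and with DESeq2 (0.0409). Dbp passed without KO library 3 (0.0400, edgeR), and Nr1d2 passed without KO library 1 (0.0249, edgeR) and without each WT library (0.0409 to 0.0451). Nr1d1, too sparse to be fitted with all libraries, was called lower without KO library 2, 3 or 4 and without the filter (log2 -1.61 to -1.48), and Per2 without the filter (adjusted p = 0.0427, edgeR).

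In monocyte-derived cells, whose annotations were also pooled within a phase, the pattern recurred. Rbm3 was 878, 593, 778, 465, 258, 437 and 341 CPM in G1 and 1104, 791, 1088, 618, 342, 523 and 445 in S or G2M cells, log2 0.29 ± 0.05 (SE), with an adjusted p of 7.3e-05 (edgeR). Per1 was 123, 149.6, 171, 164, 119, 98.5 and 121 CPM in G1 and 99.3, 98.3, 88.6, 122, 65.9, 53.2 and 92.7 in S or G2M cells, log2 -0.71 ± 0.08 (SE), with an adjusted p of 2.8e-07 (edgeR). Both had the same direction in 7 of 7 libraries. Cirbp (-0.08 ± 0.09 (SE), with an adjusted p of 0.507, edgeR, higher in 2 of 7), Per2 (-0.05 ± 0.25 (SE), with an adjusted p of 0.898), Tef (-0.23 ± 0.21 (SE), with an adjusted p of 0.390) and Nr1d2 (-0.24 ± 0.18 (SE), with an adjusted p of 0.323) did not pass. Again 2 of 6 tested genes were called, against 42.5% of all genes (21.5% higher and 21.0% lower).

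Among the pathway lists in S or G2M T cells, 5 of 13 core clock genes were lower (Rora -0.55, Arntl -0.51, Bhlhe40 -0.34, Clock -0.22 and Nfil3 -0.18) and 0 were higher. That share is near the 39.8% of all genes called in this comparison (18.4% lower). Of the immediate-early and glucocorticoid-responsive genes 14 of 20 were lower and 2 higher, Fkbp5 (0.27) and Cdkn1a (0.24). Heat shock genes split, with 5 higher, such as the mitochondrial chaperonin Hspd1 (0.44), and 7 lower. In monocyte-derived cells, where 42.5% of all genes were called (21.0% lower), 6 of 13 core clock genes were lower, among them Nfil3 (-1.32) and Bhlhe40 (-1.23), and 18 of 20 immediate-early and glucocorticoid-responsive genes were lower, such as Nr4a1 (-1.53) and Junb (-0.91), and Fkbp5 (0.29) was higher. The median of that list was -0.32 in T cells and -0.68 in monocyte-derived cells.

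**Figure D5:**
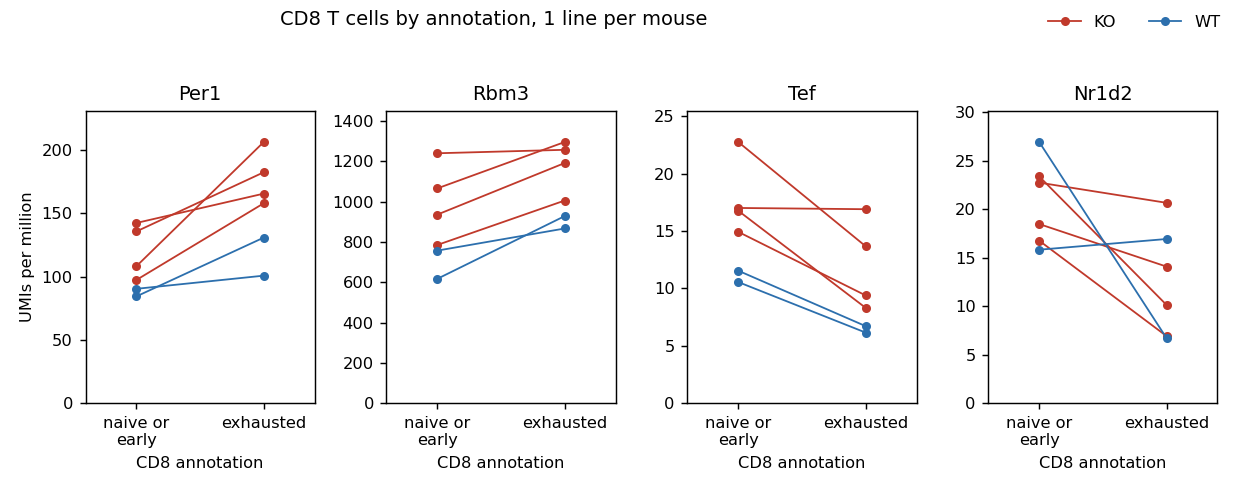
CPM of Per1, Rbm3, Tef and Nr1d2 in naive or early activated and in exhausted CD8 T cells, 1 line per library (6 libraries with 20 or more cells of both). Per1 and Rbm3 lines go up in exhausted cells, Tef lines go down or stay level, and the Nr1d2 line of WT library 3 alone goes up.

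CD8 T cells annotated as exhausted, a state of cells under lasting antigen stimulation, were compared with naive or early activated CD8 cells of the same mouse in 6 libraries (KO 1 to 4, WT 2 and 3). Per1 was 142, 97.5, 108, 136, 90.4 and 84.5 CPM in naive or early activated and 166, 158, 206, 183, 101 and 131 in exhausted cells, higher in 6 of 6. Its log2 difference was 0.51 ± 0.11 (SE), with an adjusted p of 4.7e-04 (edgeR). Rbm3 was 1240.5, 936, 1066, 786, 758 and 618 against 1258, 1192, 1296, 1006, 867 and 929, higher in 6 of 6, log2 0.24 ± 0.07 (SE), with an adjusted p of 0.00709 (edgeR).

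Tef went down, from 17, 16.8, 22.8, 14.9, 11.5 and 10.6 to 16.9, 8.32, 13.7, 9.40, 6.72 and 6.16 CPM, with KO library 1 nearly level and log2 -0.75 ± 0.25 (SE), with an adjusted p of 0.0250 (edgeR). Some of these values rest on few UMIs: in exhausted cells of WT library 2, 6.72 CPM is 1 UMI. For WT library 3, 3 UMIs make 7.92 CPM in naive or early activated and 4.62 in exhausted cells. This Tef call was lost in 4 of 8 alternatives: without KO library 2 (adjusted p = 0.065, edgeR), without the filter on low counts (0.092), without the mouse term (0.113) and with DESeq2 (0.21). Without KO library 3 or KO library 4 Tef was too sparse to be fitted. Cirbp (0.09 ± 0.10 (SE), with an adjusted p of 0.586, edgeR, higher in 5 of 6 libraries) and Nr1d2 (-0.52 ± 0.22 (SE), with an adjusted p of 0.104, edgeR) did not pass. Of 5 genes tested 3 were called, against 20.6% of all genes (9.74% higher and 10.9% lower).

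Among the other clock genes of exhausted CD8 cells, 3 of 10 tested were higher, the repressors Bhlhe40 (log2 1.36) and Nfil3 (0.80) among them, and 0 were lower, beside 9.74% of all genes higher and 10.9% lower. Immediate-early and glucocorticoid-responsive genes were lower in 15 of 19 (Fos -1.67, Dusp1 -1.15 and Fosb -0.81 among them), so Per1 differed in direction from these. Heat shock genes were lower in 12 of 16, with Bag3 at -2.86 and Hsp90aa1 at -1.61. The summed heat shock list took 26045 ± 3631 CPM (SD, n = 7) in naive or early activated and 8081 ± 779 (n = 6) in exhausted CD8 cells. Its part in the differences of Per1, Rbm3 and Tef was not tested.

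Genes with the most similar pattern to each of the 8 were found by Pearson correlation of log2(CPM + 1) over 59 class-by-library sums, among 6728 genes, given as a description since the sums share mice and classes. For Cirbp they were Paxx (0.81), Grk6 (0.78) and Zdhhc4 (0.78). For Rbm3 they were Atp5g2 (0.84), Eif3m (0.82) and Rpl3 (0.81), and for Per1 Csrnp1 (0.84), Nfkbid (0.83) and Gch1 (0.83). Tef was most like Taok2 (0.80), Nr1d1 like Cpe (0.78), Nr1d2 like Srpk2 (0.72), Dbp like Terf2 (0.65) and Per2 like Naip2 (0.58).

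After the mean of each class was subtracted, which leaves differences between libraries, Cirbp was most like Gm5586 (0.83), Rps3a3 (0.79) and Rps3a2 (0.78), and Rbm3 like Rps3a2 (0.81), Rpl3 (0.78) and Rps3a3 (0.75). Rps3a2 and Rps3a3 carry the names of copies of a ribosomal protein gene, so their UMIs are uncertain. Per1 was then most like Pnrc1 (0.73). Between the 8 genes, Cirbp and Rbm3 had 0.68 over the sums and 0.65 after class means were subtracted, Cirbp and Per1 had 0.35 and 0.33, and Tef and Nr1d2 had 0.65 and 0.29.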

How the data were processed

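Single-cell libraries of 4 KO and 3 WT mice, 1 per mouse, were analysed from the deposited matrix of expected counts (UMIs per gene and cell, made by the authors, not scaled, 7.51% of non-zero values not whole), the deposited percent of mitochondrial and ribosomal UMIs and the deposited count of detected genes per cell. Per the submitters' processing notes, FastQC 0.11.5, STAR 2.7.10a, STARsolo and the mm10 build were used. How values that are not whole arose, how doublets were treated and whether strand was used in counting are not given in the sources used here. Cell annotations and cell cycle phases are the authors'.

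UMIs were summed per library and cell group with 20 or more cells and rounded. CPM is UMIs per 1000000 UMIs of that group. edgeR 4.0.16 (R 4.3.3, TMM, filterByExpr, robust quasi-likelihood fit, Benjamini-Hochberg over all genes tested, threshold 0.05) was the main test and DESeq2 1.42.0 an alternative. The SE of a log2 difference is its size divided by the root of F. KO and WT were compared per class, and within-mouse comparisons had the mouse as a term. Nothing in the labels beyond 1 library per mouse says how mice were housed or collected. The p-values measure the spread between these libraries or, for lymphoid against myeloid cells, between class sums of these libraries. A class with under 20 cells in a library was left out there, which dropped KO library 3 from microglia, KO library 1 from B cells and KO libraries 1 and 3 from tumour or stromal cells. The fitting functions were tested on simulated data.

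The 8 genes and the pathway lists were chosen with earlier results of these data known. The 8 genes are named throughout, list members only past the adjusted threshold and up to 5 in each direction, and 3 genes of like pattern per gene. Values of some list genes are not reported here. Member p-values between genotypes, planned for some genes, were left out since that contrast chose them. Alternatives were DESeq2, no filter on low counts, whole-number values only, each library left out, a replicate block, sex as a term, G1 cells only, annotations weighted equally and 50 cells needed. For levels, the mean over cells of the CPM of each cell was also run.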

Additional observations from a re-analysis of the deposited data

Results flagged for a closer look

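In 6 of the 48 sets of 4 KO libraries examined, 1 library stood apart from the other 3 by Dixon's criterion. That criterion flags about 1 in 20 sets of independent, normally distributed values. The sets here share libraries, and the flagged genes have few UMIs, where 1 UMI beside counts of 0 is always flagged. Nothing is therefore read from the count of flags. KO library 3 held most of the flags, all for sparse clock genes. Its Tef level was 18.9 CPM in monocyte-derived cells (5.13 to 7.10 in the others) and 26.2 in NK cells (8.60 to 11.5), its Nr1d2 level was 27.8 in NK cells (7.82 to 9.39) and its Per2 level was 6.65 in monocyte-derived dendritic cells (2.20 to 2.81). In its plasmacytoid dendritic cells Dbp was at 0 CPM against 9.58 to 9.96 in the others, but with 188037 UMIs a count of 0 there allows up to 16.0 CPM, so it cannot be told from them. Nr1d1 in plasmacytoid dendritic cells was 1.66 CPM in KO library 4, which is 1 UMI, and 0 in the others.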

How the results depend on the processing

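Between genotypes, edgeR called 0 of the 8 genes in each class. With DESeq2 the count was 1 in monocyte-derived cells, monocyte-derived dendritic cells, conventional dendritic cells and tumour or stromal cells and 2 in T cells. Without a filter on low counts it was 2 in monocyte-derived dendritic cells (0.866% of all genes called in the same fit), 2 in NK cells (0.148%), 2 in tumour or stromal cells (0.803%), 1 in plasmacytoid dendritic cells (0.226%) and 1 in the T cell against monocyte-derived cell interaction (0.693%). Leaving out single libraries gave 0 to 1 in monocyte-derived cells (1 without KO library 4, with 0.0403% of all genes) and 0 to 1 in tumour or stromal cells (1 without KO library 4, with 0.273%, or WT library 2, with 0.0956%). In S or G2M T cells the count of 2 became 5 without the filter and 0 without the mouse term, and was 3 to 5 with any 1 library left out (4 without WT library 1, 5 without KO library 3). Nr1d1, Per2, Tef, Nr1d2 and Dbp were the genes gained there, in 1 alternative or more. Without the mouse term the count was 1 (Per1) for monocyte-derived cell phases (26.3% of all genes called) and 1 (Per1) for exhausted CD8 cells (13.3%). Cirbp in lymphoid cells then had an adjusted p of 0.114 (edgeR). The Per2 difference in S or G2M monocyte-derived cells ranged from -0.35 to 0.19 with 1 library left out, reversing without KO library 1. With 50 cells needed per group, 5 of 8 genes kept their highest class (Per2, Dbp and Tef did not). The causes were not tested. Depth limits what a count of 0 can show: for Per2 in NK cells of the WT libraries it allows up to 11.1 CPM.

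With the replicate number as a block, 1 of the 8 genes was called in monocyte-derived dendritic cells (0.0762% of all genes), conventional dendritic cells (0.0427%) and plasmacytoid dendritic cells (0.6%), and 0 in the other classes fitted. The tumour or stromal fit could not be made. Cirbp was 1.33 in T cells and 1.38 in B cells under the block. Same-numbered libraries did not deviate together (correlations -0.03, 0.10 and -0.21 in T cells and 0.05, 0.20 and -0.30 in monocyte-derived cells), so the numbers are not taken as pairs.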
